A study of Mus musculus with 2 samples.

Results

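Splicing factors and heterogeneous nuclear ribonucleoproteins (hnRNPs) were compared between a control library and an ID2 library of mouse embryonic stem cells. The group was chosen by gene symbol: proteins of the small nuclear ribonucleoproteins (snRNPs), SF3A, SF3B and U2AF, PRPF, SRSF and TRA2, hnRNP, PTBP, MBNL, CELF and the numbered RBM proteins, with a mean level of at least 50. Of 14398 listed genes, 125 carried such a symbol, and 119 of these, among 12679 genes in all, had a mean of at least 50. For each gene below, the first value is the control and the second the ID2 library. The 6 matching genes under this floor were Srsf12, Celf6, Rbm11, Rbm24, Rbm8a2 and the antisense RNA Rbm3os. The nearest gene outside was Srsf12, with a mean of 49.5 (58.7 and 40.2), and the nearest inside was Mbnl3, with a mean of 59.0 (53.7 and 64.3).

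Both libraries came from 46C, an embryonic stem cell line of the mouse, at passages 21 to 24, on gelatin in serum with leukemia inhibitory factor (LIF), and their labelled cell type is the inner cell mass of the pre-implantation embryo. The control cells had received the empty PB vector, and the ID2 cells had received PB-ID2 and overexpressed ID2; the labels do not say whether either was a clone or a pool. Each group held 1 library, so no difference below has a replicate check, no error can be given, and no test was run. Levels are the authors' normalized signal, whose sequencing depth is unknown. Ratios are on the log2 scale, ID2 over control, after adding a pseudocount of 1, which understates the ratios of low genes. Signals come in whole steps of about 1, and a gene is called higher, lower or equal by its number of steps in the ID2 library.

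Id2 itself, the overexpressed gene, stood at 324 (control) and 26225 (ID2), an 80.6-fold difference. All 5 embryonic stem cell markers were listed, between 9009 and 14946 in the control, and their summed signal was 63356 and 83349. Of 9 fibroblast and feeder cell markers 5 were listed, with a sum of 2143 and 1350 and with Dcn, Fap, Lum and Postn not listed. Of 6 neural markers 5 were listed, summing to 3172 and 3380 (Pax6 was not). Primitive endoderm markers, 5 of 6 listed, summed to 333 and 386 (Sox17 was not), and trophectoderm markers, 3 of 5 listed, to 1123 and 1233 (Cdx2 and Elf5 were not). Neural markers went both ways within their sum, with Sox1 at 386 and 782 and Elavl3 at 1578 and 1027, and so did those of primitive endoderm, with Sox7 at 16.9 and 127 and Gata4 at 146 and 76.4. Trophectoderm markers did too, with Krt8 at 613 and 754 and Krt18 at 346 and 260. All 5 stem cell markers were higher, Zfp42 the most at 9009 and 16218.5. All 5 listed fibroblast and feeder cell markers were lower, such as Col1a1 at 339 and 139, but only 3 had a mean of at least 50. The part of these marker differences in the splicing genes' ratios was not tested, and in bulk RNA fewer cells of a type and less RNA per cell cannot be told apart.

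Splicing removes introns from precursor mRNA on the spliceosome, which is assembled on each intron from the U1, U2, U4, U5 and U6 snRNPs. U1 recognises the 5′ splice site, U2AF and the U2 snRNP recognise the 3′ splice site and branch point, and PRPF proteins and helicases drive the rearrangements that lead to catalysis. SR proteins mostly promote the use of exons that they bind, hnRNPs often repress them, and PTBP, MBNL, CELF and many RBM proteins set exon choice by cell type. ID2 has no DNA-binding region of its own; it binds E proteins, basic helix-loop-helix transcription factors, and keeps them off DNA.

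No member was 2-fold apart between the libraries, 0 higher and 0 lower of 119, beside 2.53% of all genes past 2-fold upward in the ID2 library and 1.86% downward. At 1.5-fold, 3 members (2.52%) were higher, beside 8.00% of all genes, and 2 members (1.68%) were lower, beside 6.59%. The 3 were Hnrnpa2b1, Rbm12b1 and Rbm19, and the 2 were Rbm44 and Rbm46. Members were highly expressed, and high genes spread less: among the 5459 genes with a mean of at least 1000, 2.97% were 1.5-fold higher and 1.74% lower, beside 2 (2.17%) and 0 of the 92 members at that level. Among the 7220 genes with a mean of 50 to under 1000, 11.8% were 1.5-fold higher and 10.2% lower, beside 1 (3.70%) and 2 (7.41%) of the 27 members at that level. In all, 61 members were higher, 55 lower and 3 equal (51.3% higher), beside 47.2% higher, 51.5% lower and 1.29% equal of all genes. Their median log2 ratio was 0.03, with quartiles of −0.12 and 0.21, and that of all genes was −0.00, with quartiles of −0.21 and 0.22.

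**Figure D1:**
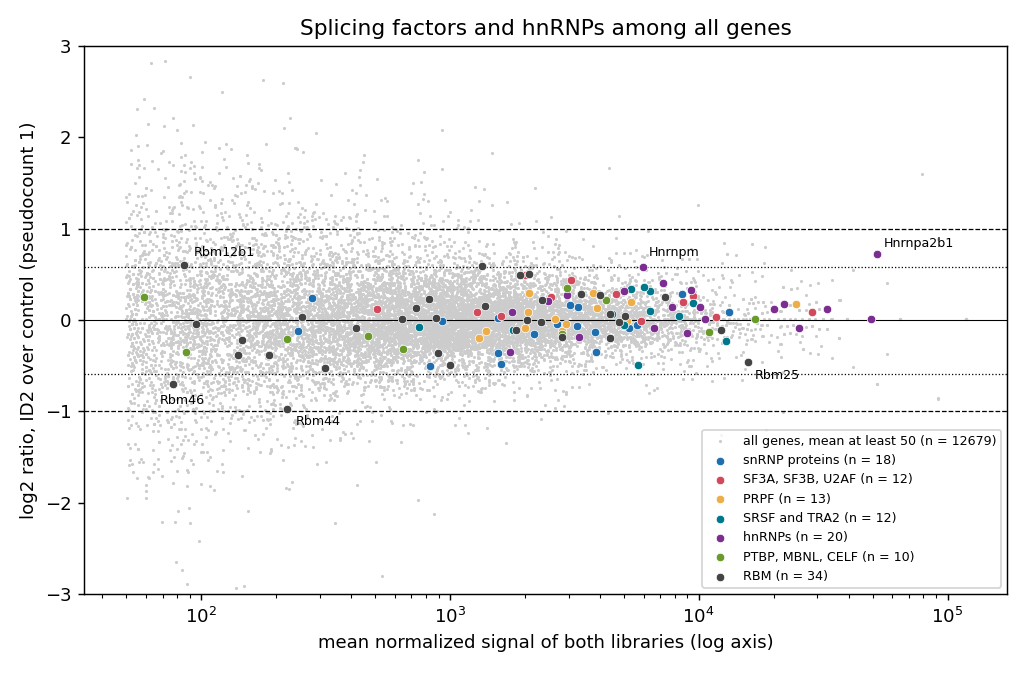
Log2 ratio of ID2 over control (vertical axis) against the mean normalized signal of both libraries (horizontal log axis) for 12679 genes (grey; 7 genes beyond 3 are not drawn) and 119 members, coloured by family. Dashed lines mark 2-fold and dotted lines 1.5-fold; members sit between −0.97 (Rbm44) and 0.72 (Hnrnpa2b1), and none is past a dashed line.

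Direction went with level among the members. Of the 92 with a mean of at least 1000, 53 were higher, 36 lower and 3 equal (median 0.08), beside 46.4% higher, 51.7% lower and 1.98% equal of all genes at that level (median 0.00). Of the 27 members below 1000, 8 were higher and 19 lower (median −0.12), beside 47.8% higher and a median of −0.01 of the 7220 genes in that range. Across the 119 members, which share 2 libraries, the log2 ratio and the log level had a Pearson r of 0.32 and a Spearman rho of 0.30, against −0.01 and −0.00 across 11749 genes matched to a transcript. Level also went with family. All 20 hnRNPs had a mean of at least 1749, and the numbered RBM genes had the lowest median level of any family, 1366. Level and family were not separated. Added up, members held 2.63% of the signal of the control and 2.81% of that of the ID2 library (659189 and 711698, a ratio of 1.08). Without Hnrnpa2b1, the sums were 619932 and 646844, a ratio of 1.04, so that this gene made up about as much of the gap as the other 118 together.

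In the authors' deposited table, 2 of the 119 members (1.68%) had an unadjusted p under 0.05, beside 3.85% of all 14398 listed genes. That share, unlike the one of members, includes genes under the floor. They were Hnrnpa2b1, with a p of 0.00447 and an adjusted p of 0.515 in the authors' deposited table, and Hnrnpm, with a p of 0.0323 and an adjusted p of 1 there. No member had an adjusted p under 0.05 in that table, which had 0.181% of all listed genes below it. Those p-values rest on no spread between replicates, as each group had a single library.

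**Figure D2:**
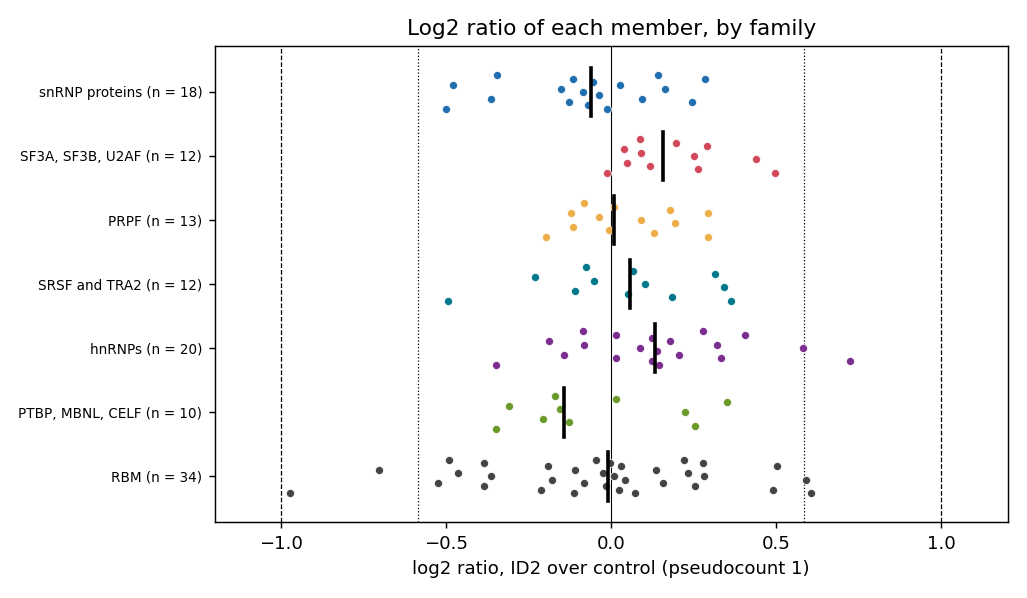
Log2 ratio of ID2 over control (horizontal axis) of each of the 119 members, 1 point per gene, in 7 families; black bars are family medians, dotted lines 1.5-fold and dashed lines 2-fold. Of the SF3A, SF3B and U2AF genes 11 of 12 lie above 0, and 12 of 18 snRNP proteins lie below it. Of all genes 47.2% were higher and 51.5% lower.

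Among the snRNP proteins, which are built onto the spliceosomal small RNAs, 6 of 18 were higher with ID2 and 12 lower (median −0.06). Beside this and each family or list count below stand 47.2% higher and 51.5% lower of all genes. The Sm proteins, which form a ring on these RNAs, were lower for 6 of 7 (median −0.09), and their summed signal was 20283 and 19344. Their median transcript length was 1161 bases. Of all genes, 31.7% were higher below 1000 bases and 43.9% at 1000 to under 2000 bases. The part of length in the Sm ratios was not tested. Snrpg, an Sm ring subunit, was 1757 and 1367 (−0.36), whereas Snrpb was 2868 and 3209.5 (0.16) and was the single Sm gene that was higher. Snrpn, the imprinted relative of Snrpb, was low in both libraries at 255 and 235 (−0.12), and it shared 21.9% of its exon bases with other genes, Snurf among them.

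The U1 proteins went both ways. Snrnp70, the U1-70K protein that binds U1 RNA, had the highest ratio of the family, 7707 and 9377 (0.28). Snrpc, the U1 protein that steadies pairing with the 5′ splice site, was 4329 and 3403 (−0.35). Snrpa, the third U1 protein here, was 5731 and 5519 (−0.05), and Snrpa1, the U2 protein A′, was 2293 and 2063 (−0.15). Snrnp27, a tri-snRNP protein, had the lowest ratio of the family at 971 and 686 (−0.50). Snrnp48, of the minor U11/U12 spliceosome, was 1862 and 1336 (−0.48), while Snrnp35 of the same particle was 256 and 303 (0.25). Snrnp25, also of that particle, was near equal at 937 and 929 (−0.01). Snrnp200, the helicase that unwinds U4 from U6, was the most abundant of the 18 by signal and near equal at 12787 and 13642 (0.09).

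SF3A and SF3B, the U2 snRNP subcomplexes that hold the branch point, were all in 1 direction: 9 of 9 genes were higher with ID2 (median 0.25), beside 47.2% of all genes. None reached 1.5-fold. Sf3b4, which contacts RNA near the branch site, had the highest ratio, from 1663 and 2347 (0.50), and 1 near-identical copy at another locus could share its reads. Sf3a2 followed with 2611 and 3541 (0.44), though 19.2% of its exon bases overlap another gene on the opposite strand. Sf3a1 was next with 4168 and 5097 (0.29). Sf3a2 and Sf3a1 are subunits of SF3A, as is Sf3a3, with 2329 and 2771 (0.25). Sf3b3 was 8622 and 10344 (0.26). The others differed by less than 0.10: Sf3b1, the large scaffold of SF3B that cradles the branch-point adenosine, was 27701 and 29511 (0.09), Sf3b5 was 1249.9 and 1328 (0.09), Sf3b6 was 1576 and 1628 (0.05) and Sf3b2 was 11536 and 11842 (0.04). The summed signal of the 9 genes was 61456 and 68410, a ratio of 1.11.

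U2AF binds the pyrimidine tract and the AG of the 3′ splice site. Its large subunit U2af2 was 8059 and 9227 (0.20), and its small subunit U2af1 was 5903 and 5853 (−0.01), the single gene among the 12 that was lower. Both have near-identical copies elsewhere in the genome. U2af1l4 was 489 and 531 (0.12), but 94.3% of its exon bases lie in another annotated gene as well.

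The promoters of 2 SF3A genes are shown as examples of the CCGGAA letters described next. Sequences are the 250 bases before the most upstream RefSeq start (build GRCm38.p6), 5′ to 3′ on the gene's strand, and capitals mark any match, on either strand, to CANNTG (the E box), TGACGT (the core of the cyclic AMP response element) or CCGGAA (the core read by ETS factors). Sf3a2 lies at chr10:80798485-80798734 on the plus strand and Sf3a3 at chr4:124714611-124714860 on the plus strand.
Sf3a2: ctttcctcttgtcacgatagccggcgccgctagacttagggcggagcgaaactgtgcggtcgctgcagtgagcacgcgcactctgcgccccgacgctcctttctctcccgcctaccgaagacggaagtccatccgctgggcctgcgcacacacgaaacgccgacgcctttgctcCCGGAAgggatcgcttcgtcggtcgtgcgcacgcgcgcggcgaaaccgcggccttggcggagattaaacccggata
Sf3a3: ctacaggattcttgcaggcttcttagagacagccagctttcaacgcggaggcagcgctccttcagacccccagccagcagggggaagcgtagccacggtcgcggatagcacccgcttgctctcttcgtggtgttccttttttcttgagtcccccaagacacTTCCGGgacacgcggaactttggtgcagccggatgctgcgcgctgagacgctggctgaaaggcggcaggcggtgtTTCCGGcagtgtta
Sf3a2 held CCGGAA 1 time and Sf3a3 held it 2 times, both times as its reverse complement, and neither held TGACGT or an E box. No promoter was given for Sf3b5 or for Sf3b4, which had the highest ratio. The letters CCGGAA occurred in 6 of the 7 SF3A and SF3B promoters that were given, all but that of Sf3b1. They were in 35.4% of the 99 member promoters and in 26.3% of those of 4251 genes with a mean of at least 1000. Of 9397 genes above the floor 23.2% held CCGGAA, and of all 27025 promoters 12.3%. Other families held it too, 7 of 15 snRNP promoters (46.7%), 6 of 12 of SRSF and TRA2 and 5 of 11 of PRPF. The hnRNPs held it in 5 of 18, RBM genes in 5 of 26 and PTBP, MBNL and CELF genes in 1 of 8 (12.5%). Neither U2af1 nor U2af1l4 held it.

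The shares of that motif by direction are not separate from the SF3A and SF3B count. All of those genes were higher, so their 6 promoters with the motif are among the 24 given next. The motif lay in the promoters of 24 of 49 higher members (49.0%) and of 10 of 47 lower members (21.3%), and in 35 of all 99 members with a promoter (35.4%). Among all genes above the floor the shares were 25.8% of higher and 20.7% of lower genes. Members with a mean of at least 1000 held it in 21 of 43 higher (48.8%) and 7 of 31 lower promoters (22.6%), beside 28.4% and 24.5% of all genes at that level. The E box letters CANNTG were in 55.6% of member promoters and in 56.1% of those of genes above the floor. By direction they were in 24 of 49 higher (49.0%) and 28 of 47 lower members (59.6%), beside 54.4% of all higher and 57.9% of all lower genes. The forms of the E box were in 8.08% (CAGCTG), 14.1% (CAGGTG) and 10.1% (CACGTG) of member promoters, beside 11.2%, 15.7% and 8.79% above the floor. CAGCTG was in 6.12% of higher and 10.6% of lower members, beside 10.7% and 11.6% of all genes. For CAGGTG these shares were 12.2% and 17.0%, beside 14.4% and 17.0%. For CACGTG they were 4.08% and 10.6%, beside 8.79% and 8.74%. For TGACGT they were 18.4% and 14.9%, beside 10.6% and 10.3%. The motifs were chosen with results of these data known, and a match is a match of letters only.

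PRPF proteins, most of which act in the U4/U6.U5 tri-snRNP or in activation of the spliceosome, were split into 6 higher and 7 lower (median 0.01, or −0.01 on whole steps), with no ratio beyond 0.30 in size. Prpf8, the core U5 protein that holds the catalytic centre, was the most abundant by signal, at 23117 and 26159 (0.18). Prpf31, which holds U4 and U6 together and is mutated in inherited retinal degeneration, was 1867 and 2286 (0.29), and Prpf38b was 3376 and 4134 (0.29). At the other end, Prpf18, a factor of the second catalytic step, was 1403 and 1224 (−0.20). Prpf19, the core of its own activating complex, was 4974 and 5688 (0.19), and Prpf3 and Prpf4, which partner each other on U4/U6, were 2632 and 2648 (0.01) and 1995 and 2124 (0.09).

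SR proteins, which carry RNA recognition motifs and arginine-serine tails, were 6 higher and 4 lower of 10 SRSF genes, and TRA2 contributed 1 gene each way. Srsf1, the founding member, had the highest signal and was lower, at 13847 and 11802 (−0.23). Srsf2 was near equal at 4371 and 4578 (0.07), as was Srsf3, the smallest SR protein, at 6168 and 6620.0 (0.10). Srsf7, a close relative of Srsf3, was 4732 and 5999 (0.34), and Srsf6 was 5660.5 and 7044 (0.32). The remaining SRSF genes, Srsf4, Srsf5, Srsf9, Srsf10 and Srsf11, lay between −0.11 and 0.18, and 67.9% of the exon bases of Srsf4 overlap another gene on the opposite strand, which these libraries cannot separate.

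Tra2a and Tra2b, paralogs that bind the same GAA-rich exon elements, held the lowest and the highest ratio of this family. Tra2a was 6695 and 4756 (−0.49, the lowest ratio of the 12), and Tra2b was 5260.4 and 6761 (0.36, the highest). Tra2a signal was thus 1.27 times that of Tra2b in the control and 0.703 times in the ID2 library. Their promoters are shown because the ratios of these paralogs lie far apart: Tra2a lies at chr6:49264053-49264302 and Tra2b at chr16:22266006-22266255, both on the minus strand of GRCm38.p6, with capitals as above.
Tra2a: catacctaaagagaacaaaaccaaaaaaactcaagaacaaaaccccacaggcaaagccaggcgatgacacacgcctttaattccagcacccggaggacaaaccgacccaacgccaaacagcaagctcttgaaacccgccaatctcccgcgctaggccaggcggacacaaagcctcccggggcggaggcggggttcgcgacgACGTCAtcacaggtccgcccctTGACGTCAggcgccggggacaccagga
Tra2b: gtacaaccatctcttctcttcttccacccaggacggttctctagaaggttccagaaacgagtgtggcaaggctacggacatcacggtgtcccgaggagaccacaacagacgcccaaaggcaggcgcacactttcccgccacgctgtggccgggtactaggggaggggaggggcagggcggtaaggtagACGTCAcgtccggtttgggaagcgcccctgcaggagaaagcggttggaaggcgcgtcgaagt
Both held TGACGT, in Tra2a with 3 matches, of which 2 overlap in the palindrome TGACGTCA, and in Tra2b with 1. Neither held CCGGAA or an E box. TGACGT was in 5 of the 12 SRSF and TRA2 promoters, in 17.2% of member promoters and in 10.5% of those of genes above the floor.

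hnRNPs coat nascent transcripts, and many bind exonic or intronic silencers. Of 20 genes 13 were higher, 5 lower and 2 equal (median 0.13), beside 47.2% higher and 51.5% lower of all genes. Hnrnpa2b1, which binds UAG-containing RNA and has been described as a reader of N6-methyladenosine, was 39257 in the control cells and 64854 in the ID2 cells, a 1.65-fold difference (0.72, the highest ratio of the 119). Among the 352 genes with a mean of at least 10000, 1.5-fold was reached upward by 3.41% and downward by 2.84%; among the 17 members at that level it was the single one (5.88%), with 0 lower. Per kilobase of transcript it ranked first among all members, with a mean signal of 30125 per kb, beside a median of 1137 for members and 272 for all genes. Cbx3, a heterochromatin protein gene that starts next to it on the other strand, was 1964 and 1925 (−0.03).

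The Hnrnpa2b1 promoter, at chr6:51469895-51470144 on the minus strand of GRCm38.p6, is shown as that of the member with the highest ratio and level.
Hnrnpa2b1: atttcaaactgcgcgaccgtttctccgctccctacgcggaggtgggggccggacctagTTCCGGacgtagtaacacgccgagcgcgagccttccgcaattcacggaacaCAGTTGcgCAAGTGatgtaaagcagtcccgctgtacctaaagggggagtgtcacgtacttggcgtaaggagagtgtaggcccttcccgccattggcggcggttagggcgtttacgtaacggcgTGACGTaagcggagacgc
It held all 3 kinds of letters: CCGGAA 1 time, as its reverse complement, TGACGT 1 time, and 2 E boxes.

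Hnrnpm was next, with 4808 and 7191 (0.58), just under 1.5-fold, but it shared 28.6% of its exon bases with the neighbouring gene March2. Hnrnpab, a CArG box binding factor, was 6155 and 8155 (0.41), Hnrnph1 was 8248 and 10379 (0.33), Hnrnpa0 was 4474 and 5583 (0.32) and Hnrnpu, the scaffold attachment factor SAF-A, was 2662 and 3229 (0.28). Smaller ratios belonged to several of the most abundant hnRNPs. Hnrnpk, a poly(C)-binding protein, was 31433 and 34275 (0.12), Hnrnpc, which binds uridine tracts, was 20697 and 23433 (0.18), and Hnrnpl, which binds CA repeats, was 19122 and 20846 (0.12).

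Hnrnpa1, the closest well-studied relative of Hnrnpa2b1, was 25954 and 24527 (−0.08), with 6 near-identical copies elsewhere whose reads may be shared. Hnrnpa3 had equal whole steps of signal, at 49104 and 49583, where the scaling alone gives a ratio of 0.01, and so had Hnrnpd (AUF1) at 10569 and 10672. Lower genes were Hnrnph3 with 1959 and 1539 (−0.35, the lowest hnRNP), Hnrnpr with 3518 and 3089 (−0.19), Hnrnpdl with 9449 and 8549 (−0.14) and Hnrnpul1 with 6816 and 6417 (−0.09). The 20 genes summed to 265333 and 305659, a ratio of 1.15, and without Hnrnpa2b1 to a ratio of 1.07. Per kilobase, Hnrnpa1 (13160 per kb), Hnrnpk (11062), Hnrnpa3 (9581), Hnrnpc (7750) and Hnrnpl (7459) followed Hnrnpa2b1 in mean level, so that hnRNPs held the first 6 places of 119.

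**Figure D3:**
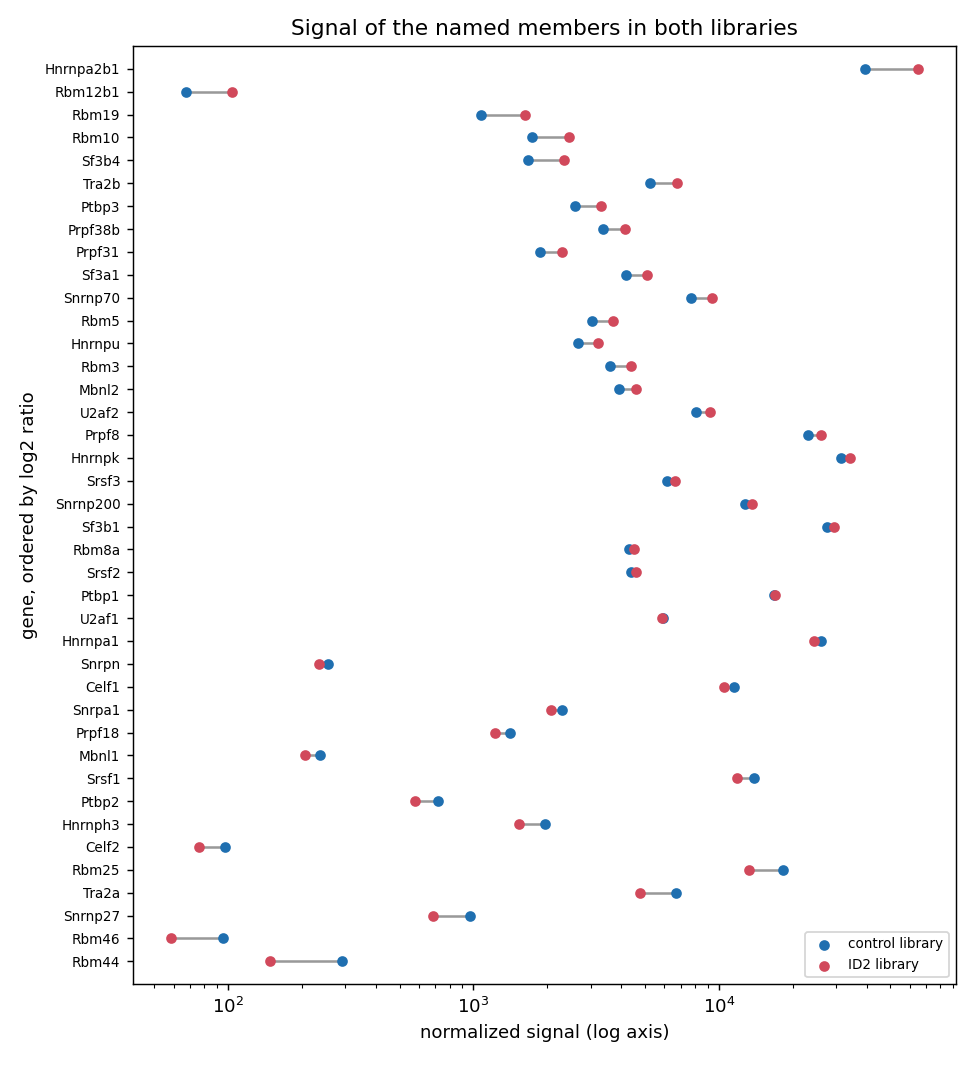
Normalized signal (horizontal log axis) of 40 members in the control (blue) and ID2 (red) libraries, 1 value per library with no error, ordered by log2 ratio from Hnrnpa2b1 at the top to Rbm44 at the bottom. The widest gap is that of Rbm44 (293 and 149), followed by Hnrnpa2b1 (39257 and 64854), Rbm46 (95.5 and 58.3), Rbm12b1 and Rbm19.

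Of the PTBP, MBNL and CELF genes, regulators best known for switching exons between tissues, 3 of 10 were higher, 6 lower and 1 equal (median −0.14, or 0.01 among those with a mean of at least 1000). Ptbp1, the polypyrimidine tract protein that represses neuronal exons in stem cells, had equal whole steps at 16769.5 and 16933, and 26.4% of its exon bases overlap other genes. Its neuronal paralog Ptbp2 was 715 and 576 (−0.31), and Ptbp3 was 2601 and 3314 (0.35). Ptbp1 signal was 23.5 times that of Ptbp2 in the control and 29.4 times in the ID2 library.

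Mbnl1 and Mbnl2, muscleblind proteins that favour differentiated-cell exons, were 237 and 205 (−0.21) and 3917 and 4576 (0.22), and Mbnl3 was low, at 53.7 and 64.3 (0.25). All 4 CELF genes above the floor were lower by small amounts, beside 51.5% of all genes. Celf1 was 11504 and 10526 (−0.13), Celf5 was 2973 and 2669 (−0.16), Celf4 was 496 and 440.1 (−0.17) and Celf2 was 97.5 and 76.4 (−0.35). Celf2 also had the lowest level per kilobase of the 119, at 9.82. None of the 10 genes was 1.5-fold apart.

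The numbered RBM genes share an RNA recognition motif and little else, and they held 4 of the 5 members past 1.5-fold. This was 2 of 34 genes upward and 2 of 34 downward, beside 8.00% and 6.59% of all genes. Of 34 genes 15 were higher and 19 lower (median −0.01, or 0.02 with a floor of 250), with the widest range of any family. Rbm44, a germ cell protein of intercellular bridges, was 293 in the control cells and 149 in the ID2 cells, a 1.96-fold difference (−0.97, the lowest of the 119). Rbm46, also known from germ cells, was low in both at 95.5 and 58.3 (−0.70). Rbm12b1 was likewise low, at 67.7 and 104 (0.61), and shares sequence with its near-identical neighbour Rbm12b2, which was 253 and 258 (0.03). Rbm19, a nucleolar protein of ribosome biogenesis, was 1075 and 1617 (0.59), and 19.2% of its exon bases overlap another gene on the opposite strand. Rbm44, Rbm46 and Rbm12b1 lie at levels under 1000, where ratios of this size are more common among all genes, as given above. Rbm19 passed 1.5-fold by little, at 1.504-fold. On whole steps its ratio was 0.57, short of 1.5-fold, and 2 members were 1.5-fold higher in place of 3.

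Among RBM genes that act in splicing, Rbm10 and Rbm5, paralogs that promote exon skipping, were 1725 and 2442 (0.50) and 3042 and 3696 (0.28), and Rbm10 has 2 near-identical copies. Rbm25, an SR-like U1-associated protein, was the most abundant RBM gene by signal and lower, at 18233 and 13221 (−0.46). Rbm39, a U2AF-related coactivator, was 12761 and 11821 (−0.11), and Rbm17 (SPF45) was 4971 and 5114 (0.04). Rbm8a, the Y14 subunit of the exon junction complex, was 4307 and 4525 (0.07), and Rbm22, which binds U6 and pre-mRNA near the catalytic centre, was 2048 and 2042 (−0.00). Rbm3, a cold-inducible protein, was 3612 and 4379 (0.28). Rbm15 and Rbm15b, adaptors of the N6-methyladenosine writer, went opposite ways, with 1166 and 830.0 (−0.49) and 1590.3 and 2233 (0.49).

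Among related genes the share of opposite directions was near that of any members paired. Of 26 pairs of paralogs, picked with their values known, 13 went in opposite directions, 8 in the same direction, and 5 had 1 gene equal in both libraries, while 47.8% of all 7021 possible pairs of members went in opposite directions. In 6 of the 26 pairs, and in 19.5% of all possible pairs, the ratios lay at least 0.5 apart: Rbm15 and Rbm15b (0.98 apart), Tra2a and Tra2b (0.86), Hnrnpa1 and Hnrnpa2b1 (0.81), Hnrnph1 and Hnrnph3 (0.68), Rbm12b1 and Rbm12b2 (0.57), and Rbm4 and Rbm4b (0.54). Rbm4 was 159 and 122 and Rbm4b was 1312 and 1461, but both share over 20% of their exon bases with another gene. Hnrnpl and Hnrnpll were closest, 0.04 apart. Pairs with the same direction included Celf1 with Celf2 (both lower), Srsf1 with Srsf9 (both lower) and Srsf3 with Srsf7 (both higher).

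**Figure D4:**
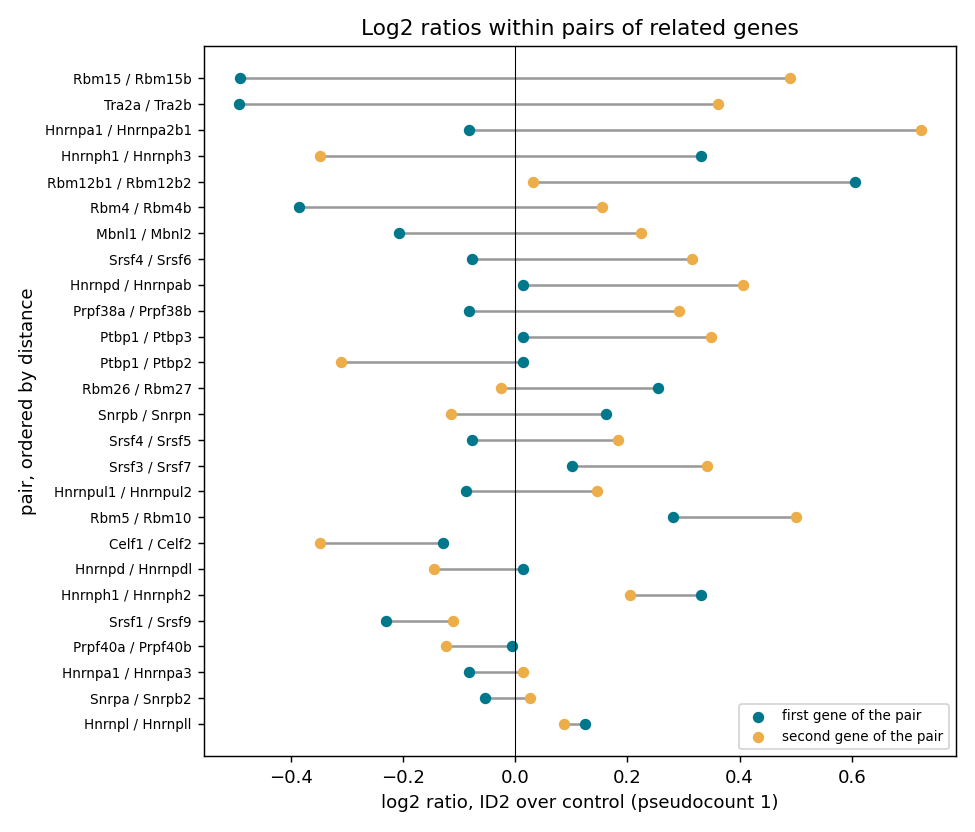
Log2 ratio of ID2 over control (horizontal axis) of both genes in 26 pairs of related genes, the first-named gene in teal and the second in orange, ordered by the distance between them. The top 4 pairs lie on both sides of 0, with Rbm15 and Rbm15b 0.98 apart and Hnrnpl and Hnrnpll, at the bottom, 0.04 apart.

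In all, 20 of the 119 genes had a near-identical copy at another locus (11 genes) or shared at least 20% of their exon bases with another gene (10 genes). Among the other 99, 50 were higher, 47 lower and 2 equal (median 0.02).

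The rest of the splicing machinery was described by 5 lists of 216 names, of which 195 were in the table and 192 had a mean of at least 50. Of these 192 genes 92 were higher, 97 lower and 3 equal (median 0.01); 7 were 1.5-fold higher and 5 lower, beside 8.00% and 6.59% of all genes, and 1 and 1 were past 2-fold, beside 2.53% and 1.86%. Kinases of SR proteins and SR-related proteins leaned lower (18 of 29, 10 higher, 1 equal, median −0.17). Clk1, a kinase that phosphorylates SR proteins, was 13876 and 8726 (−0.67, the lowest of the list), Clk3 was 2231 and 1674 (−0.41) and Clk4 was 1246 and 921 (−0.43), whereas Clk2 was 2438 and 2749 (0.17). The 3 LUC7-like U1 proteins Luc7l (−0.24), Luc7l2 (−0.39) and Luc7l3 (−0.58) were lower. Son, a nuclear speckle protein that aids splicing of weak introns, had the highest ratio of the list at 6881 and 11821 (0.78).

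Further snRNP and SMN complex genes were 24 higher and 20 lower of 44 (median 0.06), from Fnbp4 (6861 and 4572, −0.59) to Txnl4b, a U5-related protein at low level (59.7 and 123, 1.03, the single 2-fold higher gene). Genes of activation and catalysis, helicases included, were 26 higher, 17 lower and 1 equal of 44 (median 0.10), from Leng1 (432 and 344, −0.33) to Ccdc94, the YJU2 step factor (170.2 and 292, 0.78). Exon junction, cap-binding, export and decay genes were 15 higher and 14 lower of 29 (median 0.03), from Smg6, an endonuclease of nonsense-mediated decay (2089.8 and 1481, −0.50), to Nxf1, the mRNA export receptor (2434 and 3907, 0.68).

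Other regulators of splicing were 17 higher, 28 lower and 1 equal of 46 (median −0.06). Esrp1, a regulator of epithelial exons, was the single 2-fold lower gene at 171 and 74.4 (−1.19), while its paralog Esrp2 was 174 and 273 (0.65). Sfpq, a paraspeckle protein, had the highest ratio with 4710.1 and 7715 (0.71), while its partner Nono was 17382 and 16941 (−0.04). Regulators best known from neurons went both ways: Elavl2 was 761 and 431 (−0.82) and Elavl3 was 1578 and 1027 (−0.62), while Nova1 was 116 and 135 (0.21) and Nova2 was 513 and 594 (0.21).

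**Figure D5:**
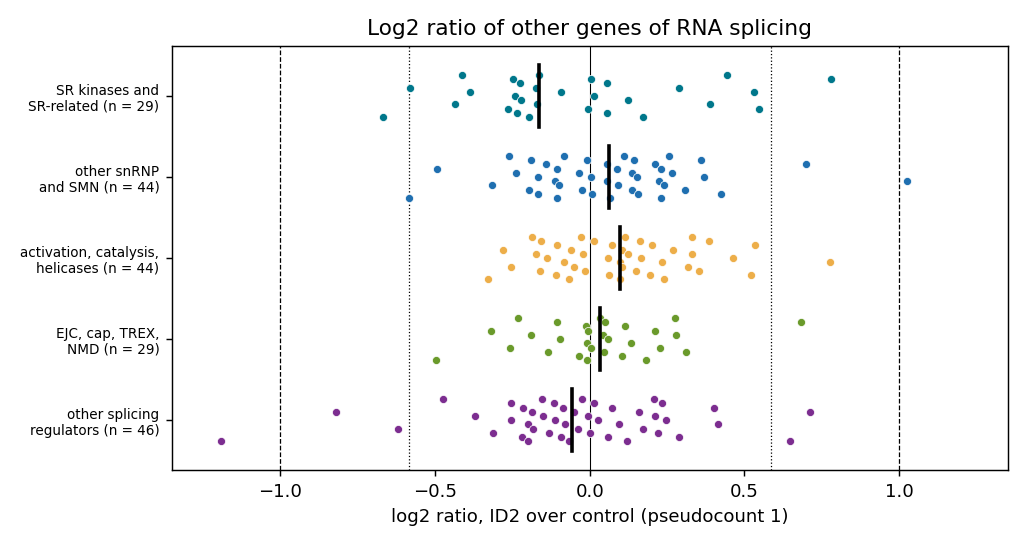
Log2 ratio of ID2 over control (horizontal axis) of 192 other genes of RNA splicing in 5 lists, 1 point per gene; black bars are list medians, dotted lines 1.5-fold and dashed lines 2-fold. The median of the SR kinase and SR-related list (−0.17) is the lowest, and that of activation and catalysis (0.10) the highest.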

How the data were processed

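RNA sequencing gave 1 library per group, control (empty vector) and ID2 (overexpression). Per the labels' protocols, the extraction used Trizol and the library kit was TruSeq RNA v2, in which strand is lost. The tools and build named in the submitters' processing notes are STAR, DESeq and mm9; their versions, the annotation and the counter are not given in the sources analysed here.

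The authors deposited a normalized signal per gene and library, their mean, the fold (the ratio of ID2 to control), its log2, and p-values with and without adjustment. Signals were whole multiples of 1 step per library (0.995 and 1.00, all within 0.01 of a whole number), and the sorted whole numbers were identical in both libraries, so a common distribution had been set before a size factor. Sequencing depth is therefore unknown and no counting interval was computed.

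The log2 ratio was computed after adding a pseudocount of 1 to both signals, for genes with a mean of at least 50. Higher, lower and equal were counted on whole steps, since equal steps differ by 0.01 on the log2 scale after scaling. Only sizes are given, beside the share of all genes past the same fold (2 and 1.5), because single libraries have no replicate spread. Simulated data with known folds and no noise were used to check the arithmetic of the script, which on such data returns those folds by construction. The members and lists were chosen with earlier results of these data known. Members were named by a rule: every one at least 1.5-fold apart, the highest and lowest ratio and highest mean of each family, and 27 well-known genes (40 genes in all). For the other splicing genes the rule took the ends of each list and those 2-fold apart. Further genes were named after their values were seen.

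Transcript lengths (longest basic coding transcript), exon overlaps and copies at 95% identity over at least 50% of a transcript (blastn 2.17.0) came from GENCODE M21 on GRCm38, and promoters from RefSeq on GRCm38.p6, which held 99 of the 119 members. As the files use mm9, no coordinate was carried over. A planned count of protein residues was not run, since protein sequences were not used here. Python 3.11.15 with pandas 2.3.3, numpy 2.4.6, scipy 1.17.1 and matplotlib 3.10.9 was used. Alternatives were another scaling, whole steps, pseudocounts of 0.1 and 10, floors of 0, 250 and 1000, folds of 1.5 and 4, the mean in place of the median, the authors' own log2 column, and leaving out genes at the highest value, repeated symbols, or members with copies or shared exons.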

Additional observations from a re-analysis of the deposited data

How the results depend on the processing

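Of 393 recomputed values, 384 moved by no more than 0.1 on the log2 scale or, for counts, by no more than 1.5 times. Among the ratios of the 40 named members the largest change was 0.0753; rescaling, the authors' own log2 column and leaving out genes at the highest value could move them little or not at all by construction. In 5 cases a value changed sign or went to 0: on whole steps the PRPF median was −0.01 in place of 0.01 and Ptbp1 was 0, the RBM median was 0.02 with a floor of 250 and 0.06 with a floor of 1000 in place of −0.01, and the fifth is the PTBP, MBNL and CELF median below. The 9 values that moved further were counts or a median. With a pseudocount of 10, 1 member was 1.5-fold higher, in place of 3. With no floor, 3 of 125 members were 2-fold lower and 5 were 1.5-fold lower, beside 3.26% and 8.93% of all 14398 genes. With a floor of 250, 0 members were 1.5-fold lower. At a fold of 1.5 in place of 2, 3 members were higher and 2 lower. With a floor of 1000, chosen after seeing the data, 0 members were 1.5-fold lower. At that floor 36 of 92 members (39.1%) were lower by any amount, in place of 55 of 119 (46.2%). The median of the PTBP, MBNL and CELF genes was then 0.0140 in place of −0.14. Leaving out members with copies or shared exons, and taking directions from the deposited values, were also chosen after seeing the data and moved nothing by more than these limits. On the deposited values 66 members were higher and 53 lower, in place of 61 higher, 55 lower and 3 equal. The 1.5-fold lower count thus rests on genes of low level. No paired analysis was possible because each group has 1 library, and for the same reason no library could be left out. Without replicates and with unknown depth, none of the small ratios can be told from the variation between cultures.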

Other observations

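The structure of the members' transcripts was set against their ratios as a description. All 119 had a coding transcript in GENCODE M21. Across members, the log2 ratio had a Pearson r of 0.05 and a Spearman rho of 0.04 with log transcript length, 0.21 and 0.16 with GC content, and 0.15 and 0.14 with the number of exons. Across 11749 genes above the floor these values were 0.07 and 0.08, −0.01 and −0.01, and −0.08 and −0.10. Where 1 exon made up at least 80% of the transcript, genes had a median of 0.10 over 1739 genes, with 58.4% higher, beside −0.01 over the 10010 other genes. Of the 15 members of that kind 10 were higher and 5 lower (median 0.07), and of the other 104 members 51 were higher and 50 lower (median 0.01). Transcripts shorter than 1000 bases had a median of −0.08 over 523 genes, with 31.7% higher. Among members 4 were that short: Snrpe, Snrpd1 and Snrnp25 were lower and U2af1l4 was higher.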
